A study of Caenorhabditis elegans with 4 samples.

Results

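The cell cycle genes described here are 10 of the 21895 genes in the deposited count table of whole *Caenorhabditis elegans*. They were named by locus tag and comprise the B-type cyclins *cyb-1*, *cyb-2.1*, *cyb-2.2* and *cyb-3*, the G1 and S phase cyclins *cye-1* and *cyd-1*, the cyclin-dependent kinases (CDKs) *cdk-1*, *cdk-2* and *cdk-4*, and the CDK inhibitor *cki-1*. The Cyclo(Pro-Tyr) group held 2 libraries from wild-type Bristol N2 worms shaken for 24 h at 19 °C in M9 buffer with 0.25 mg/mL of this cyclic dipeptide of proline and tyrosine. The DMSO group held 2 libraries from N2 worms handled the same way with the solvent as control. The animals were synchronised by bleaching and are described only as embryos or first-stage (L1) larvae. The series text gives 20 °C for the same step. Bacterial food is named for the culture plates and not for the M9 step. The labels do not say whether the libraries of a group came from separate cultures, so p-values measure only the spread between these libraries, which may be technical.

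The CDKs described here are active only when bound to a cyclin, and each phase of the cell cycle has its own pairs. In *C. elegans*, CDK-4 with cyclin D and CDK-2 with cyclin E drive cells through G1 and into DNA synthesis, and CDK-1 with B-type cyclins drives mitosis. CKI-1, of the p21/p27 inhibitor family, holds cells in G1, including the blast cells of larvae that hatch without food. B-type cyclin transcripts are known from dividing cells, the germline and the maternal store of the early embryo.

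Library totals ran from 40240674 to 52987317 counts. All 10 genes had at least 169 counts in every library and all passed the filter on low counts, among 19439 genes tested. The markers of muscle, pharynx, intestine, neurons and epidermis were present in all libraries. Those of the germline, the oocyte and the early embryo were present as well. Of 10 sperm markers, 3 were at 0 in at least 1 library.

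Transcripts of 2 mitotic cyclins fell after Cyclo(Pro-Tyr). The genes *cyb-1* and *cyb-3* fell to 52.5% and 54.2% of the DMSO level, the kinase gene *cdk-1* stood at 61.3% without passing the test, and the G1 and S phase genes *cyd-1*, *cye-1* and *cdk-4* stood at 86.2%, 85.9% and 93.6%. The opposite direction was seen in *cdk-2*, at 124% of DMSO, again without passing the test. Calls were made by edgeR's quasi-likelihood test at a Benjamini-Hochberg adjusted p under 0.05 over all tested genes. Of the 10 genes, 2 were called, both lower, against 398 genes or 2.05% of all tested. The median log2 fold change of the 10 genes was -0.41, and that of all tested genes was -0.0032. In what follows, a fold change is log2 of Cyclo(Pro-Tyr) over DMSO, and CPM is the usual read count relative to library size, here after TMM scaling.

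**Figure D1:**
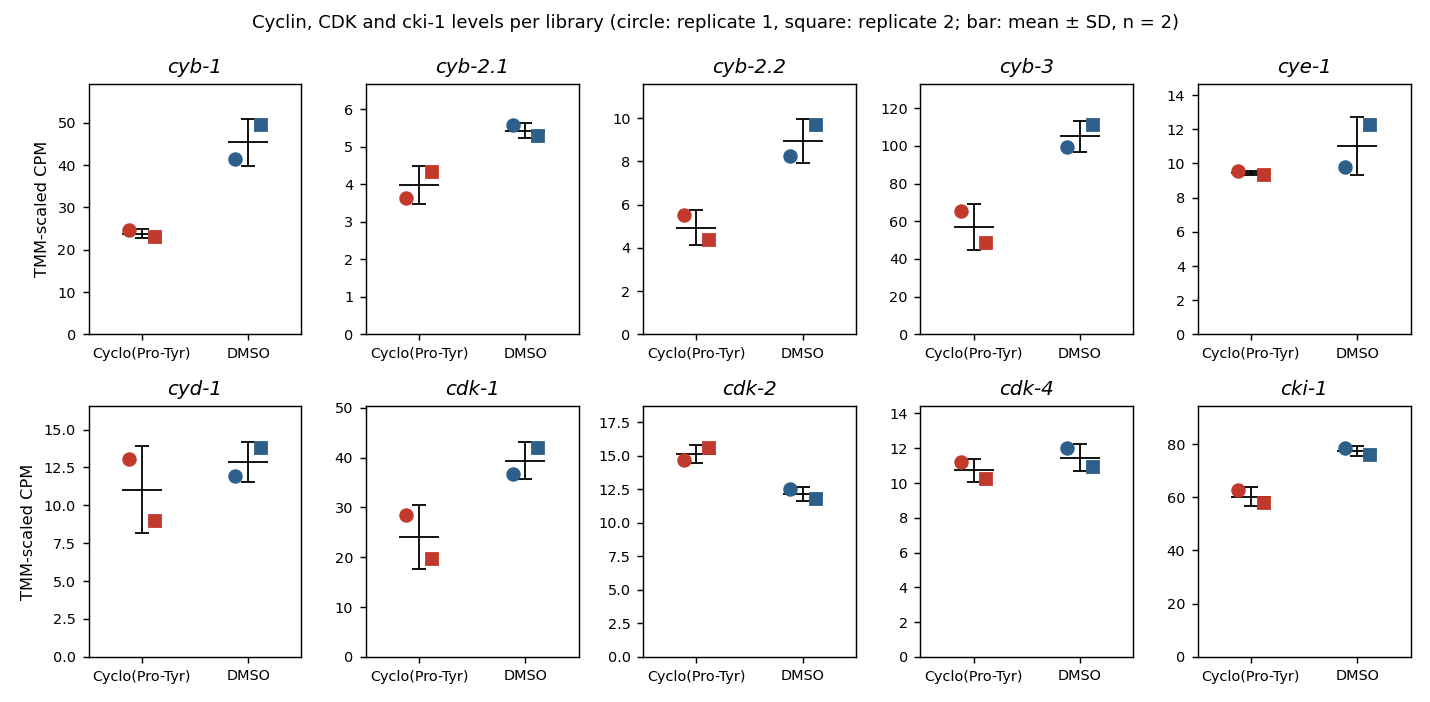
Level of each of the 10 genes in TMM-scaled CPM (y axis, from 0) in the 2 Cyclo(Pro-Tyr) and 2 DMSO libraries, with replicate 1 as circles, replicate 2 as squares, and bars for the mean ± SD. The B-type cyclins, *cdk-1* and *cki-1* lie lower in both Cyclo(Pro-Tyr) libraries than in either DMSO library, while *cyd-1* and *cdk-4* overlap and *cdk-2* lies higher.

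The B-type cyclin *cyb-1* (CELE_ZC168.4), which with CDK-1 is needed for chromosomes to line up in mitosis, had 24.7 and 23.003 CPM in Cyclo(Pro-Tyr) replicates 1 and 2, against 41.5 and 49.3 CPM in DMSO replicates 1 and 2. The Cyclo(Pro-Tyr) libraries differed little and stood well below both DMSO libraries. The means were 23.8 ± 1.17 CPM in Cyclo(Pro-Tyr) and 45.4 ± 5.55 CPM in DMSO (SD, n = 2 each), and the log2 fold change was -0.93 ± 0.12 (SE; edgeR adjusted p 0.0337).

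The most abundant B-type cyclin, *cyb-3* (CELE_T06E6.2), is needed in worm embryos for sister chromatids to separate. It had 65.6 and 48.2 CPM in Cyclo(Pro-Tyr) replicates 1 and 2, against 99.3 and 110.8 CPM in DMSO. Its Cyclo(Pro-Tyr) libraries lay further apart than those of *cyb-1*, with replicate 2 the lower, and neither reached the DMSO range. The means were 56.9 ± 12.3 CPM in Cyclo(Pro-Tyr) and 105.02 ± 8.15 CPM in DMSO (SD, n = 2 each). Its log2 fold change was -0.88 ± 0.16 (SE; edgeR adjusted p 0.0457).

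The calls of *cyb-1* and *cyb-3* did not hold in every alternative. Without DMSO replicate 1 their log2 fold changes were -1.05 and -0.96, and without DMSO replicate 2 they were -0.802 and -0.804. Both calls were lost either way, in fits where edgeR called few or no genes at all, so the loss is not particular to these genes. Leaving out Cyclo(Pro-Tyr) replicate 1 or 2 instead moved the log2 fold change of *cyb-3* to -1.12 or -0.68. With the replicate number as a block the adjusted p was 0.0506 for *cyb-3*, and with total counts in place of TMM it was 0.0541. With only genes of at least 5 CPM in 2 libraries kept, *cyb-1* and *cyb-3* had edgeR adjusted p of 0.0671 and 0.0806.

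The pair *cyb-2.1* (CELE_Y43E12A.1) and *cyb-2.2* (CELE_H31G24.4) encodes closely similar B-type cyclins from genes on different chromosomes, and how the counting divided reads between the copies is not known. The levels of *cyb-2.1* were 3.62 and 4.33 CPM in Cyclo(Pro-Tyr), against 5.56 and 5.29 CPM in DMSO. Those of *cyb-2.2* were 5.501 and 4.35 CPM in Cyclo(Pro-Tyr), against 8.23 and 9.66 CPM in DMSO. Neither gene overlapped between the groups, and replicate 2 of Cyclo(Pro-Tyr) was the higher library for *cyb-2.1* and the lower one for *cyb-2.2*. Their log2 fold changes were -0.46 (standard error 0.18) and -0.85 (standard error 0.18), with edgeR adjusted p of 0.149 and 0.0541.

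Because of this likeness the counts of the pair were also summed into 1 row, a choice made after the values were seen. The sum was 9.12 and 8.68 CPM in Cyclo(Pro-Tyr), against 13.8 and 14.9 CPM in DMSO. Summed, the replicates of each group came closer together than for *cyb-2.2* alone. The log2 fold change was -0.69 ± 0.13 (SE; edgeR adjusted p 0.0483). That call was lost with total counts (edgeR adjusted p 0.0543), with the filter of 5 CPM in 2 libraries (0.0770), with the legacy fit (0.0503) and with the replicate block (0.0818). It was also lost without DMSO replicate 1 or 2 (log2 fold change -0.74 and -0.63), where few or no genes at all were called.

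Shares of the B-type cyclin pool overlapped between the groups. The share of *cyb-3* among counts of the 4 B-type cyclins was 66.0% and 60.4% in Cyclo(Pro-Tyr), against 64.2% and 63.3% in DMSO. That of *cyb-1* was 24.8% and 28.8% in Cyclo(Pro-Tyr), against 26.9% and 28.2% in DMSO.

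The G1 cyclin *cyd-1* (CELE_Y38F1A.5), cyclin D of the worm and the partner of CDK-4, had 13.1 and 8.99 CPM in Cyclo(Pro-Tyr), against 11.9 and 13.8 CPM in DMSO. One Cyclo(Pro-Tyr) library lay within the DMSO range and the other below it, and the log2 fold change was -0.21 ± 0.19 (SE; edgeR adjusted p 0.502). Without Cyclo(Pro-Tyr) replicate 2 its sign turned, to 0.03. Without replicate 1 the log2 fold change was -0.52.

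The cyclin E gene *cye-1* (CELE_C37A2.4), which with CDK-2 starts DNA synthesis, had 9.54 and 9.35 CPM in Cyclo(Pro-Tyr), against 9.80 and 12.2 CPM in DMSO. The groups did not overlap, by a margin smaller than the gap between the DMSO libraries. The log2 fold change was -0.22 ± 0.15 (SE; edgeR adjusted p 0.386), and it was -0.37 without DMSO replicate 1 and -0.06 without DMSO replicate 2.

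The mitotic kinase gene *cdk-1* (CELE_T05G5.3) had 28.6 and 19.5 CPM in Cyclo(Pro-Tyr), against 36.7 and 42.0 CPM in DMSO. Both Cyclo(Pro-Tyr) libraries lay below both DMSO libraries, and replicate 2 stood at 0.684 times replicate 1 in Cyclo(Pro-Tyr). The log2 fold change was -0.71 ± 0.18 (SE), and its edgeR adjusted p, 0.0699, missed the threshold. The log2 fold change was -1.01 without Cyclo(Pro-Tyr) replicate 1 and -0.46 without replicate 2.

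The S phase kinase gene *cdk-2* (CELE_K03E5.3) had 14.7 and 15.6 CPM in Cyclo(Pro-Tyr), against 12.5 and 11.8 CPM in DMSO. It was the single one of the 10 genes with a positive fold change, 0.31 ± 0.12 (SE; edgeR adjusted p 0.157). Exons of *cdk-2* overlap the antisense RNA *anr-45* over 3.26% of their length and the non-coding RNA K03E5.9 over 4.29%, so a small part of its counts is uncertain. The G1 kinase gene *cdk-4* (CELE_F18H3.5) had 11.21 and 10.2 CPM in Cyclo(Pro-Tyr), against 12.02 and 10.9 CPM in DMSO. The groups overlapped, and the log2 fold change was -0.10 ± 0.14 (SE; edgeR adjusted p 0.688).

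The inhibitor *cki-1* (CELE_T05A6.1) had 62.7 and 57.7 CPM in Cyclo(Pro-Tyr), against 78.6 and 76.0 CPM in DMSO. Replicates lay close together and the groups apart, with means of 60.2 ± 3.52 CPM in Cyclo(Pro-Tyr) and 77.3 ± 1.82 CPM in DMSO (SD, n = 2 each). The log2 fold change was -0.36 ± 0.10 (SE; edgeR adjusted p 0.0850). Its relative *cki-2*, on the same chromosome, had 19.96 and 16.7 CPM in Cyclo(Pro-Tyr), against 15.7 and 18.7 CPM in DMSO. These groups overlapped (log2 fold change 0.09, edgeR adjusted p 0.713).

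At an unadjusted p under 0.05, 6 of the 10 genes were lower and 1 was higher, against 14.3% and 13% of all tested genes. The 6 were the 4 B-type cyclins, *cdk-1* and *cki-1*, and the higher one was *cdk-2*. Both Cyclo(Pro-Tyr) libraries lay below both DMSO libraries for 7 of the 10 genes, where 30.8% of all tested genes did so, and above them for 1, where 29.6% did so. The 10 genes were chosen with earlier results of these libraries known, so these counts carry no test of the group as a whole.

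**Figure D2:**
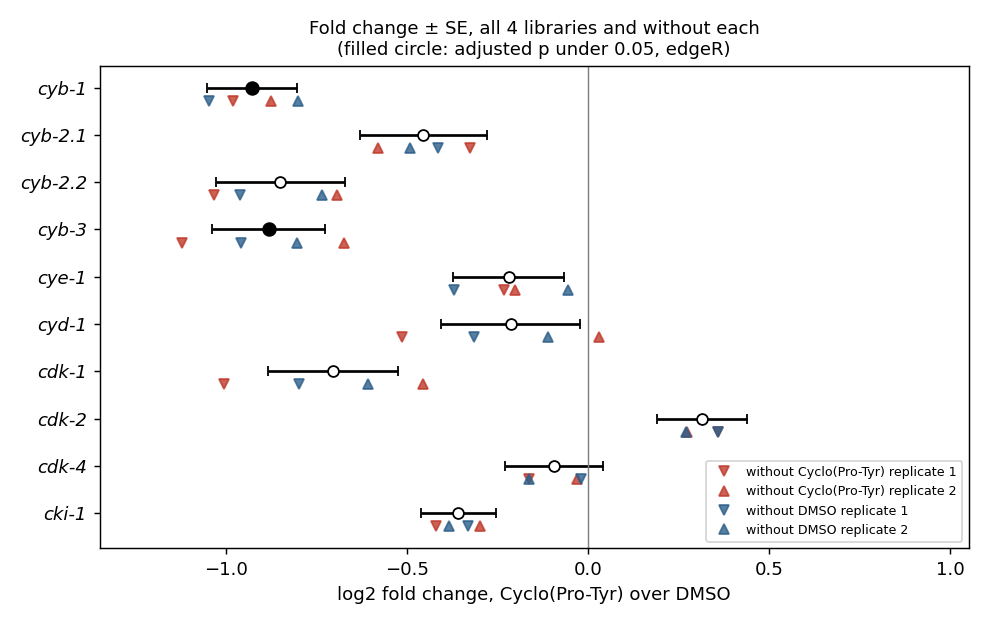
Log2 fold change of Cyclo(Pro-Tyr) over DMSO (x axis) for each of the 10 genes, as circles with the standard error over all 4 libraries, and as triangles without each library in turn. Filled circles mark the called genes *cyb-1* and *cyb-3*, and *cyd-1* changes sign without Cyclo(Pro-Tyr) replicate 2.

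Per kilobase of annotated exon, a scale on which genes can be compared, the inhibitor was the highest of the 10 in both groups. In Cyclo(Pro-Tyr), *cki-1* averaged 74.4 CPM per kilobase, followed by *cyb-3* at 38.9, *cdk-1* at 20.3, *cyb-1* at 14.1 and *cdk-4* at 8.71. In DMSO the same 5 genes led in the same order, with *cki-1* at 95.5, *cyb-3* at 71.9, *cdk-1* at 33.2, *cyb-1* at 26.9 and *cdk-4* at 9.31 CPM per kilobase. The replicates of neighbours among these 5 did not overlap in either group.

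Below *cdk-4*, the order differed between the groups. In Cyclo(Pro-Tyr) it ran *cdk-2* (6.50 CPM per kilobase), *cyd-1* (5.49), *cye-1* (4.47), *cyb-2.2* (3.69) and *cyb-2.1* (3.14). In DMSO it ran *cyb-2.2* (6.70), *cyd-1* (6.40), *cdk-2* (5.22), *cye-1* (5.21) and *cyb-2.1* (4.28). Several of these neighbours overlapped between replicates. They were *cdk-2* with *cyd-1*, *cyd-1* with *cye-1* and *cyb-2.2* with *cyb-2.1* in Cyclo(Pro-Tyr), and *cyb-2.2* with *cyd-1* and *cdk-2* with *cye-1* in DMSO.

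Ratios of counts within a library do not depend on library scaling, and they were taken to set the mitotic genes against the G1 and S phase genes. The ratio of the summed B-type cyclins to the sum of *cye-1* and *cyd-1* was 4.39 and 4.36 in Cyclo(Pro-Tyr), against 7.11 and 6.73 in DMSO. The groups did not overlap, and the difference of -0.66 (log2) was far larger than the gap between replicates of either group. With 2 libraries against 2, a two-sided exact permutation test cannot give a p below 0.333, so no p is given for this ratio or the others.

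The ratio of *cdk-1* to *cdk-2* was 1.95 and 1.25 in Cyclo(Pro-Tyr), against 2.93 and 3.55 in DMSO. The log2 difference was -1.05, and the groups did not overlap. Within the mitotic pair, the ratio of B-type cyclins to *cdk-1* was 3.48 and 4.09 in Cyclo(Pro-Tyr), against 4.21 and 4.17 in DMSO. These values came close to touching, with a log2 difference of -0.15, and the ratio of *cyb-3* to *cyb-1* overlapped between the groups.

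Relative to its relative *cki-2*, *cki-1* was lower, with ratios of 3.14 and 3.46 in Cyclo(Pro-Tyr) and 5.01 and 4.06 in DMSO. Relative to the sum of the 9 cyclin and CDK genes, *cki-1* was higher, with ratios of 0.356 and 0.402 in Cyclo(Pro-Tyr) and 0.331 and 0.286 in DMSO. The inhibitor was therefore lower in CPM and at the same time a larger part of the 10 genes' counts. Of the 9 genes, the most abundant were *cyb-3*, *cyb-1* and *cdk-1*, at 54.2%, 52.5% and 61.3% of DMSO, against 77.9% for *cki-1*. The less abundant *cyb-2.1* and *cyb-2.2* also stood below *cki-1*, at 72.9% and 55.5%. Above it stood *cdk-2*, *cdk-4*, *cyd-1* and *cye-1*, at 124%, 93.6%, 86.2% and 85.9%, so the larger part does not hold against each gene singly.

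**Figure D3:**
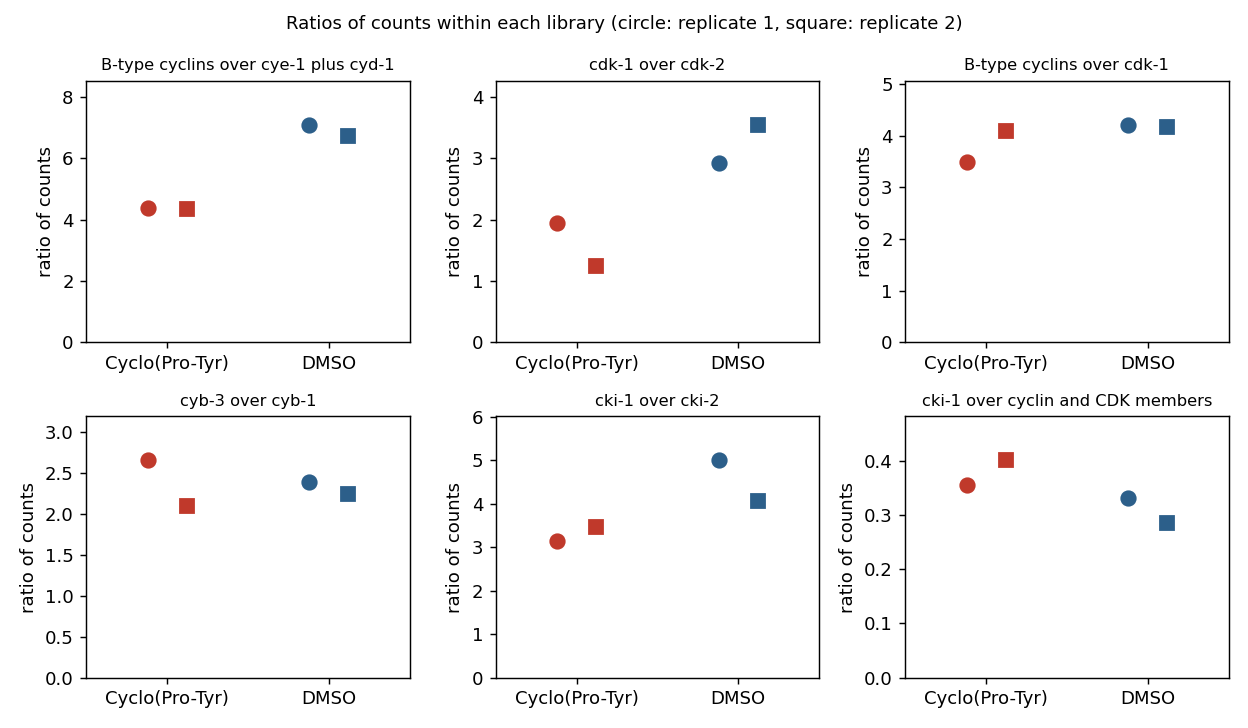
Ratios of counts within each library (y axes, from 0, no unit) for 6 pairs of genes or sums of genes, with Cyclo(Pro-Tyr) left and DMSO right. The ratio of B-type to G1 and S phase cyclins lies near 4.4 in both Cyclo(Pro-Tyr) libraries and between 6.73 and 7.11 in the DMSO libraries, and the ratio of *cyb-3* to *cyb-1* overlaps.

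Other genes of the cell cycle, and genes known to act on *cki-1*, were read from 8 lists, with 105 tested genes outside the 10. Of these, 81 had a negative fold change, and 43 were lower and 5 higher at an unadjusted p under 0.05. Over all tested genes 14.3% were lower and 13% higher at that p, shares to set beside each list below. Called genes numbered 3 lower and 1 higher, against 2.05% of all tested genes called in either direction. The higher one was *daf-16*, from the list of genes that act on *cki-1*. These calls and those of markers below did not hold without DMSO replicate 1 or 2, where edgeR called few or no genes at all. Each of those fits had a lone DMSO library, and why so few genes passed was not tested. In a whole animal, fewer cells of a type and less RNA per cell cannot be told apart.

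All 24 tested genes of the DNA replication list had negative fold changes, with a median of -0.52, and 18 were lower at an unadjusted p under 0.05. The replication clamp *pcn-1* fell, with 36.3 and 32.7 CPM in Cyclo(Pro-Tyr), against 64.9 and 66.3 CPM in DMSO (log2 fold change -0.93, edgeR adjusted p 0.0302). The helicase subunit *mcm-7* fell as well, with 43.8 and 33.8 CPM in Cyclo(Pro-Tyr), against 61.0 and 70.6 CPM in DMSO (log2 fold change -0.76, edgeR adjusted p 0.0493).

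Of 26 mitosis and cytokinesis genes, 23 had negative fold changes, with a median of -0.37, and 17 were lower at an unadjusted p under 0.05. The spindle checkpoint gene *mdf-1* was the 1 called, with 63.3 and 60.0 CPM in Cyclo(Pro-Tyr), against 87.4 and 95.2 CPM in DMSO (log2 fold change -0.57, edgeR adjusted p 0.0476). Its checkpoint partner *mdf-2* had a log2 fold change of -0.73 at an adjusted p of 0.0530. Without Cyclo(Pro-Tyr) replicate 1 or 2 the median of the list was -0.58 or -0.23.

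Genes that switch CDK-1, the Rb, E2F and DREAM genes, and the ubiquitin ligase genes gave no call. In the list of kinases and phosphatases that switch CDK-1, 3 of 10 genes were lower and 1 higher at an unadjusted p under 0.05, with a median of -0.28 that was -0.17 without Cyclo(Pro-Tyr) replicate 2 and -0.11 without DMSO replicate 2. The phosphatase gene *cdc-25.3* and the Polo kinase gene *plk-1* had log2 fold changes of -1.05 and -0.58, at edgeR adjusted p of 0.0593 and 0.0892. In the list of Rb, E2F and DREAM genes, which repress or drive cell cycle transcription, all 9 fold changes were negative, the median was -0.20, or -0.13 when Cyclo(Pro-Tyr) replicate 2 was left out, and *lin-53* and *lin-54* led with -0.51 and -0.41 (edgeR adjusted p 0.0643 and 0.0945). In the list of ubiquitin ligases that degrade cyclins and inhibitors, 8 of 15 fold changes were negative, the median of -0.06 turned to 0.03 without Cyclo(Pro-Tyr) replicate 2, and the leading genes went apart. They were the SCF subunit *lin-23*, at 0.40, and the mitotic activator *fzy-1*, at -0.65 (edgeR adjusted p 0.0890 and 0.0943).

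The 8 other cyclins had fold changes between -0.27 and 0.07, with none past an unadjusted p of 0.05. Cyclin A (*cya-1*) and *cyy-1* led with -0.27 and -0.19 (edgeR adjusted p 0.277 and 0.312). Of 10 other CDKs and CDK-binding genes, 7 had positive fold changes, with a median of 0.06 that turned to -0.04 without Cyclo(Pro-Tyr) replicate 1 and was 0.12 without replicate 2. The CDK-binding subunit *cks-1* had a log2 fold change of -0.49 and the CDK-5 activator *cdka-1* one of 0.24 (edgeR adjusted p 0.0737 and 0.170).

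Genes known to act on *cki-1* in other settings were higher in value, with 7 of 8 fold changes positive and a median of 0.28. Of these, *lin-23*, *fzr-1*, *cul-2*, *cdc-14* and *lin-35* were also in lists described above. The FOXO factor *daf-16*, known to be needed for *cki-1* expression in starved L1 larvae, rose to 231.9 and 258 CPM in Cyclo(Pro-Tyr), against 141.9 and 150.1 CPM in DMSO. Its fold change was 0.75 ± 0.11 (log2, SE; edgeR adjusted p 0.0355), and 2.28% of its exon length overlaps a non-coding RNA on the opposite strand. The heterochronic gene *lin-14* had a log2 fold change of 0.55 at an adjusted p of 0.0716. The fold changes of *daf-16* and *cki-1* thus had opposite signs.

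**Figure D4:**
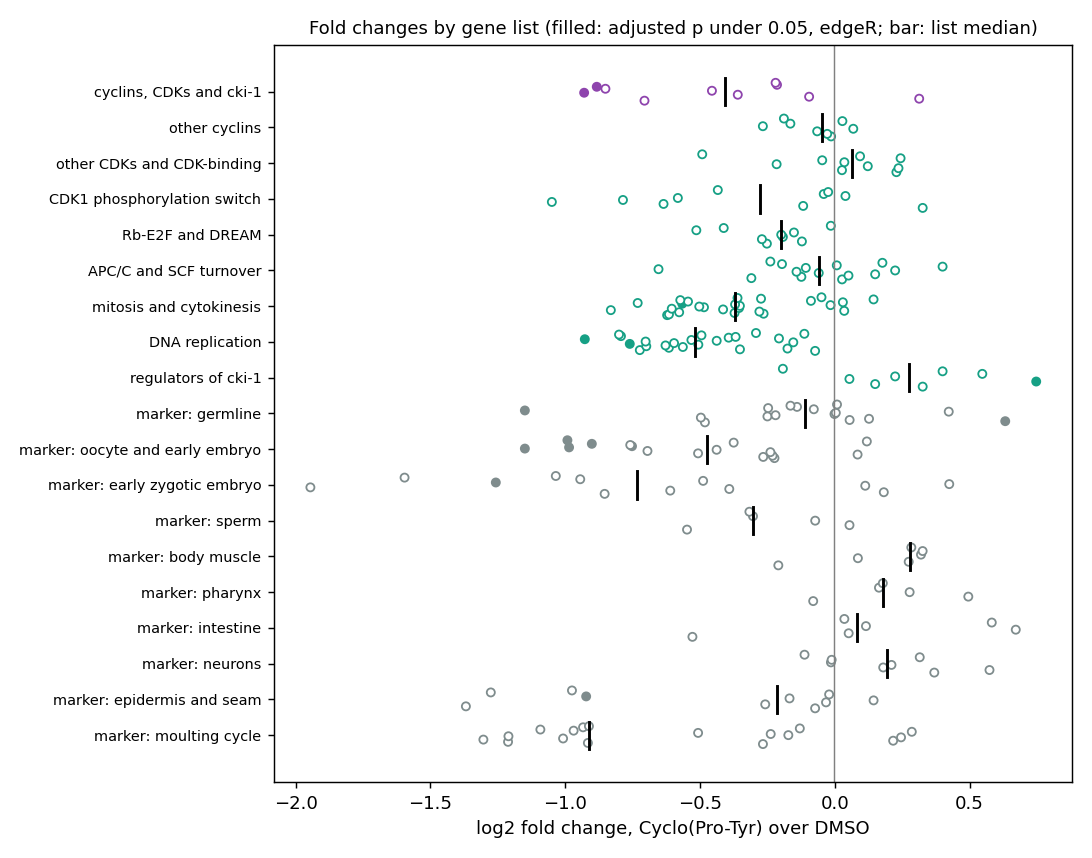
Log2 fold change of Cyclo(Pro-Tyr) over DMSO (x axis) for each tested gene of the lists, with filled points for called genes. Rows are the 10 described genes, 8 lists of other cell cycle genes and regulators of *cki-1*, and 10 lists of tissue and stage markers. Black bars mark list medians, and a grey line marks the median of all tested genes. The DNA replication list lies wholly below that line, and the moulting list has the lowest median, -0.91.

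Beside the B-type cyclins, the summed level of oocyte and early embryo markers was 154 to 173 CPM in Cyclo(Pro-Tyr), against 222 to 252 CPM in DMSO. Of the 16 markers, 14 had negative fold changes, none was at 0 in any library, and 5 were called lower. These were the maternal RNA-binding protein genes *pos-1*, *oma-1*, *oma-2*, *spn-4* and *nos-2*, with log2 fold changes of -0.90, -0.99, -0.75, -0.99 and -1.15. In *pos-1* the levels were 23.4 and 22.5 CPM in Cyclo(Pro-Tyr), against 39.6 and 46.1 CPM in DMSO.

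Early zygotic markers were scarce, with a summed level of 29.0 to 29.5 CPM in Cyclo(Pro-Tyr), against 33.3 to 36.5 CPM in DMSO. Of 12, 9 had negative fold changes and *pes-10* was called (-1.26, edgeR adjusted p 0.0385), with *hlh-27* next (-1.95, adjusted p 0.0578). Germline markers had summed levels of 411 to 414 CPM in Cyclo(Pro-Tyr), against 369 to 390 CPM in DMSO, and a median of -0.11. The most abundant, *mes-3* and *gld-2*, averaged 102 and 84.6 CPM in Cyclo(Pro-Tyr), against 76.4 and 54.6 CPM in DMSO. The higher sums rest on these genes, as 10 of the 16 fold changes were negative. Of these 16, *nos-2* was called lower (-1.15, edgeR adjusted p 0.0434) and the poly(A) polymerase gene *gld-2* higher (0.63, adjusted p 0.0484). Exons of *nos-2* overlap a gene on the opposite strand over 12.4% of their length.

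Moulting markers differed between the libraries of each group. Their summed level was 1652 and 1227 CPM in Cyclo(Pro-Tyr) replicates 1 and 2, against 1666 and 2115 CPM in DMSO replicates 1 and 2. Of 17, 14 had negative fold changes, none was called, none was at 0, and *mlt-8* and *mlt-10* led with -1.21 and -1.304 (edgeR adjusted p 0.0756 and 0.0779). The median of -0.91 was -1.42 without Cyclo(Pro-Tyr) replicate 1 and -0.29 without replicate 2. It was -1.13 without DMSO replicate 1 and -0.60 without DMSO replicate 2.

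Epidermis and seam markers summed to 239 to 338 CPM in Cyclo(Pro-Tyr), against 384 to 433 CPM in DMSO. Of these 10, 9 had negative fold changes, with a median of -0.21 that was -0.37 without Cyclo(Pro-Tyr) replicate 1 and -0.07 without replicate 2. The gene *grd-10* was called lower (-0.92, edgeR adjusted p 0.0363), *nhr-73* had -1.28 (adjusted p 0.0756), and none was at 0. The largest gaps in mean level were in *dpy-7* (35.9 CPM in Cyclo(Pro-Tyr), 92.9 CPM in DMSO) and *wrt-2* (40.2 and 79.3 CPM). The fold changes of *elt-1*, *lin-26* and *ceh-16* were -0.03, -0.02 and -0.07, and that of *elt-3* was 0.14, so the lower sums do not describe every marker. Sperm markers were scarce, at 12.3 to 12.8 CPM summed in Cyclo(Pro-Tyr), against 15.4 to 16.2 CPM in DMSO, with *fer-1* at -0.55 and *spe-9* at -0.32.

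Unlike those of epidermis and seam, markers of body muscle, pharynx, intestine and neurons had positive medians, of 0.28, 0.18, 0.08 and 0.20. None of these markers was called. Leading genes were *unc-22* (0.33) and *unc-15* (0.32) in muscle, *myo-1* (0.50) and *pha-4* (0.16) in pharynx, *ges-1* (0.67) and *act-5* (-0.53) in intestine, and *egl-3* (0.57) and *unc-13* (0.32) in neurons. Without 1 library these medians ran from 0.18 to 0.31 for muscle, 0.13 to 0.31 for pharynx, 0.07 to 0.12 for intestine and 0.13 to 0.25 for neurons. Summed levels for muscle were 13336 to 13712 CPM in Cyclo(Pro-Tyr), against 10598 to 11769 CPM in DMSO. Those for pharynx were 4058 to 4385 CPM in Cyclo(Pro-Tyr), against 3025 to 3612 CPM in DMSO, and those for neurons 2967 to 3478 CPM in Cyclo(Pro-Tyr), against 2463 to 2527 CPM in DMSO. The intestine sums overlapped, at 2251 to 2419 CPM in Cyclo(Pro-Tyr) and 2297 to 2380 CPM in DMSO. The part of these marker levels in the values of the cyclin genes was not tested.

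Across the 4 libraries, the profile of log2 CPM centred on each gene's own mean was compared between genes. The median profile of the 10 genes was -0.11 and -0.32 in Cyclo(Pro-Tyr) replicates 1 and 2, against 0.23 and 0.24 in DMSO. Among the 10117 other genes averaging 10 CPM or more, the nearest to it by Euclidean distance were F15G9.1, *crt-1*, *mec-5*, *dhs-19* and K02B7.3, at distances of 0.0311 to 0.0355. Of the 10 genes themselves, *cki-1* was nearest to the median profile (0.12) and *cdk-2* farthest (0.79). Nearest to *cki-1* alone were *mff-1*, *phb-2* and T04H1.5, at 0.0204 to 0.0271. With 4 libraries such likeness is a description and carries no test.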

How the data were processed

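Per the labels' protocols, total RNA was made into stranded single-end libraries and sequenced on a NextSeq550. The deposited values are raw counts, whole numbers of reads per gene and library that the authors had not normalised. Bowtie2 and SAMtools are named in the submitters' processing notes; the counting tool, build, annotation and strand use are unknown (not given in the sources used here), so no coordinates are printed. Groups and replicate numbers follow the titles, and columns were matched by treatment and number. A treatment label of Cyclo(Pro-Tyr) replicate 2 also carries the words for replicate 1. Symbols came from an NCBI RefSeq table of WBcel235, matching 21890 rows; exon lengths and overlaps came from the Ensembl annotation of that assembly.

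Across all genes, edgeR 4.0.16 (R 4.3.3) was run with filterByExpr, TMM and glmQLFTest without the legacy or robust option, with treatment as the only term. The standard error is the fold change over the root of F. Simulated counts checked the fit. DESeq2 1.42.0, limma-voom (limma 3.58.1) and the other alternatives appear in the closing section. Figures used matplotlib 3.10.9. Named genes are the 10 members, the called genes and the 2 smallest p of each list, and nearest profiles; *cki-2* was added after its values were seen. Members and lists were chosen with earlier results of these data known, and ratios after values were seen. Of 228 list entries, 2 (*mat-2* and *cdc-45*) had no match among the RefSeq symbols and were left out. In no library pair were counts within sampling noise. A count of 1 equalled 0.0188 to 0.0256 CPM. No sequence is printed.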

Additional observations from a re-analysis of the deposited data

How the results depend on the processing

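The number of calls varied with the processing and with the libraries kept. The 398 genes and 2 members called in the report became 841 genes with upper-quartile scaling, 215 genes and 1 member with total counts, and 1789 genes and 4 members with DESeq2's Wald test. With the filter of 5 CPM in 2 libraries edgeR called 0 genes and 0 members, with 3736 genes at an unadjusted p under 0.05. Leaving out 1 library gave 0 to 4296 genes and 0 to 6 members, the lowest being edgeR's 0 without DMSO replicate 1 (3649 genes had an unadjusted p under 0.05), and 4 genes were called without DMSO replicate 2. The count of other cell cycle genes lower at an unadjusted p under 0.05, 43 in the report, was 19 to 47 when 1 library was left out, 19 being without DMSO replicate 2. The causes were not tested. A lone library was given the spread of the remaining pair.

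The replicate block gave 221 genes and 1 member, *cyb-1*. Deviations of same-numbered libraries correlated at -0.20 over genes, so a crossed replicate block was added after seeing the data and gave 4581 genes and 5 members.

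Over the 15 alternatives the fold changes of 9 members kept their sign, and that of *cyd-1* turned once (leaving out 1 library gave -0.52 to 0.0290, the highest without Cyclo(Pro-Tyr) replicate 2). The call of *cyb-1* was lost in 3 alternatives and that of *cyb-3* in 5, while *cyb-2.2* gained one in 6 and *cdk-1* in 3. Of 14 called genes named in the text, all 14 were called with DESeq2 size factors, upper-quartile scaling, no filter, DESeq2 and the robust fit, and 13, 9 and 8 with limma-voom, the legacy fit and total counts. With the replicate block 5 of the 14 were called, and none was without DMSO replicate 1 or 2 or, of the 12 left by it, with the filter of 5 CPM. Use of the longest transcript left levels per kilobase within 1 SD.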
